A study of Canis lupus familiaris with 10 samples.

Results

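The Toll-like receptor (TLR) family was examined in canine cutaneous histiocytoma (CCH), a benign tumor of Langerhans cell origin in the skin of dogs that usually regresses on its own while lymphocytes enter it. The members were the 10 gene symbols TLR1 to TLR10, and all 10 were among the 23266 gene symbols of the table. Gene expression had been measured by QuantSeq 3′, a sequencing assay that reads 1 short fragment near the polyadenylated end of each transcript, in archived tissue of pet dogs that had been fixed in formalin and embedded in paraffin (FFPE). There were 5 early tumors, staged as group 1 of the scheme of Cockerell and Slauson, and 5 late tumors, staged as group 3 and labeled as rich in lymphocytes. The early tumors came from 2 French Bulldogs, a Goldendoodle, a Terrier and a Boxer aged 0.5 to 5 years (4 ages given), with 1 female, 1 male, 2 neutered males and 1 dog of unstated sex. The late tumors came from a Rottweiler, a Beagle, a Pug, a Bullterrier and a Jack Russell Terrier aged 1.5 to 9 years, with 1 female, 3 males and 1 neutered male. The table's columns give the stage but not the dog, so the numbers 1 to 5 of the libraries serve only as names, and age, sex and breed could not be tied to a library.

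TLRs are membrane proteins of innate immune cells that recognize microbial molecules, and some molecules of damaged tissue, through leucine-rich repeats, and signal through a cytoplasmic TIR domain. TLR1, TLR2, TLR4, TLR5, TLR6 and TLR10 sit mainly at the cell surface, where TLR2 pairs with TLR1 or TLR6 to detect lipopeptides, TLR4 detects lipopolysaccharide and TLR5 detects flagellin. TLR3, TLR7, TLR8 and TLR9 reside in endosomes and detect nucleic acids, and they need the chaperone UNC93B1 to get there. Most members signal through the adaptor MyD88 to NF-κB and IRF transcription factors. In skin they are carried by macrophages, dendritic cells, Langerhans cells, B cells, neutrophils and keratinocytes in differing sets.

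The libraries held 2973125 to 4439709 reads assigned to genes, and 1 read was worth a normalized read count of 0.788 to 1.07. Late libraries were shallower (2973125 to 3230455 reads) than 4 of the 5 early libraries (3132916 to 4439709). The DV200, the percentage of RNA fragments longer than 200 bases, was 68.5% ± 2.46 in early and 73.2% ± 2.09 in late CCH (SD, n = 5 each). The study's sample sheet lists no RNA extraction batch that holds tumors of both stages, so stage, extraction batch and RNA quality cannot be told apart. The tissue labels were checked against marker genes. Summed normalized read counts of 11 T cell markers were 84.7 to 2585 in early and 4061 to 6329 in late libraries, without overlap, and those of 12 macrophage markers were 3213 to 13040 and 7143 to 12753. The Langerhans and dendritic cell markers found in the table (11 of 13, without CD207 and ZBTB46) summed to 1338 to 3643 in early and 1134 to 1802 in late CCH. FLT3, a growth factor receptor of dendritic cells, and FCER1A, a subunit of the IgE receptor, were called lower in late CCH (log2 difference -2.89 and -2.47), calls kept in 3 and 1 of the 10 fits that left out a single library. With all 10 libraries the FLT3 call was also lost with robust variance moderation in limma (adjusted p = 0.0588) and with edgeR (adjusted p = 0.0559). In bulk tissue, fewer cells of a type and less RNA per cell cannot be told apart.

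All 10 members had reads, and their mean levels spanned from under 1 to 282 normalized read counts. Because the assay gives about 1 fragment per transcript, levels of different members were set side by side on the scale of normalized read counts. In early CCH the order of the mean levels was TLR10, TLR7, TLR4, TLR2, TLR1, TLR6, TLR3, TLR8, TLR9 and TLR5. In late CCH it was TLR7, TLR4, TLR2, TLR10, TLR8, TLR1, TLR6, TLR3, TLR9 and TLR5. Within both stages the ranges of every pair of neighbors in the order overlapped, although TLR2 lay above TLR1 in all 5 early libraries and TLR9 above TLR5 in all 5 late libraries. TLR10 moved from rank 1 to rank 4 and TLR8 from rank 8 to rank 5, while the other members kept their order among themselves.

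**Figure D1:**
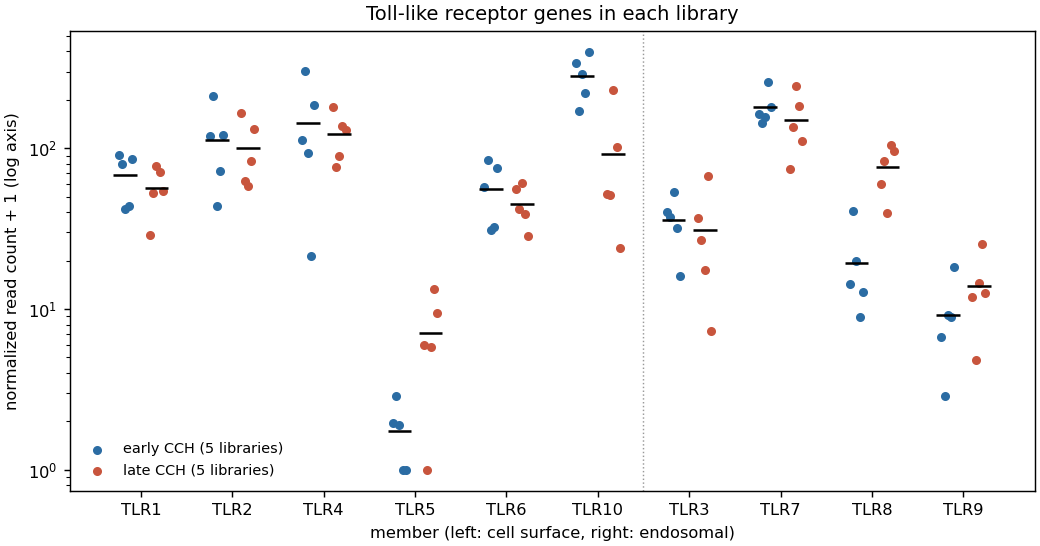
Normalized read count plus 1 (log axis) of each of the 10 Toll-like receptor genes in the 5 early (blue) and 5 late (red) libraries, with horizontal bars at the stage means. Cell-surface members stand left of the dotted line and endosomal members right of it. TLR10 sits lower in 4 of the 5 late libraries and TLR8 higher in 4 of the 5, while most other members overlap broadly.

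No member was called between the stages. A gene was called when its p, adjusted by the Benjamini-Yekutieli (BY) procedure over the 12397 genes tested with limma, was at most 0.05 and its log2 fold change (log2FC, late minus early on log2 of the normalized read count plus 1) was at least 1 in size. Of the 10 members, 9 passed the filter on low values, and 0 of these 9 were called, against 2.17% of all genes tested (1.06% higher and 1.11% lower in late CCH). Of all calls 48.7% were higher in late CCH, and 64.0% when libraries were scaled by their column totals instead. With the same adjustment over the recovered whole reads, DESeq2 called 1 member (TLR8), against 6.54% of all genes it tested, and edgeR called 0, against 1.43%. With the less strict Benjamini-Hochberg (BH) adjustment 2 of the 9 were called, TLR8 higher and TLR10 lower, against 9.04% of all genes. The same 2 members had an unadjusted limma p of at most 0.05, against 30.9% of all genes. For no member did the late values lie entirely on 1 side of the early values, a separation seen upward in 5.91% and downward in 6.05% of the genes tested. The median log2FC of the 9 members was -0.24, with 3 positive and 6 negative values, beside -0.0037 over all genes. TLR9, 1 of the 3 positive, passed the filter mainly through late libraries, so its direction is no independent result.

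TLR8, an endosomal receptor for single-stranded RNA, had the largest positive log2FC of the family. Its normalized read counts were 13.3, 40.0, 19.0, 7.88 and 11.8 in early libraries 1 to 5, and 58.7, 81.8, 38.7, 104 and 95.5 in late libraries 1 to 5. In 4 of the 5 late libraries TLR8 was above every early library, and late library 3 lay just below early library 2. The mean was 18.4 ± 12.7 in early and 75.8 ± 26.9 in late CCH (SD, n = 5 each), a ratio of means of 4.12. These values rest on 99 reads in early and 378 reads in late CCH. The log2FC was 2.11 (SE 0.42, 95% interval 1.19 to 3.03), with an unadjusted limma p of 0.000277 and a BY-adjusted p of 0.0746, which misses the threshold of 0.05. In the order of p-values over all genes TLR8 stood at rank 461. On the recovered whole reads the log2FC was 2.04 with DESeq2 (BY-adjusted p = 0.00142, called) and 2.05 with the quasi-likelihood test of edgeR (BY-adjusted p = 0.117, not called). Without early library 2, the highest of its stage, the log2FC was 2.43 and TLR8 was called (limma, BY-adjusted p = 0.0289).

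TLR10, a cell-surface receptor related to TLR1 and TLR6 and known from B cells and dendritic cells, had the largest negative log2FC. Early libraries 1 to 5 had normalized read counts of 338, 168, 289, 218 and 395, and late libraries 1 to 5 had 50.7, 50.4, 230, 100 and 23.1. Late library 3 lay within the early range and the other 4 late libraries lay below every early library. The mean was 282 ± 90.7 in early and 91.0 ± 82.8 in late CCH (SD, n = 5 each), a 3.095-fold difference that rests on 1500 and 462 reads. The log2FC was -1.98 (SE 0.49, 95% interval -3.05 to -0.92), and its unadjusted limma p of 0.0015 became 0.186 after BY adjustment. The same test put TLR10 at rank 1003 of all genes. With DESeq2 and edgeR the log2FC was -1.62 and -1.61, with BY-adjusted p-values of 0.0839 and 0.511. Without late library 3 the log2FC was -2.42 and TLR10 was called (limma, BY-adjusted p = 0.0336).

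**Figure D2:**
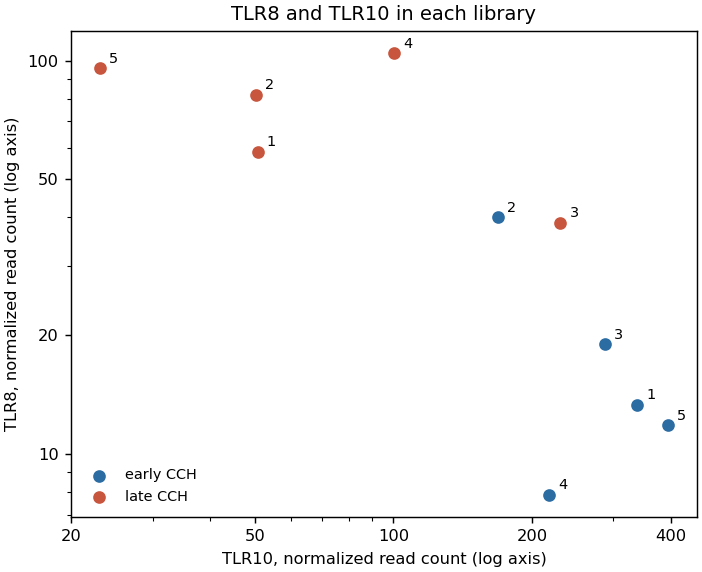
TLR8 (vertical, log axis) against TLR10 (horizontal, log axis), both in normalized read counts, with 1 point per library numbered within its stage (early blue, late red). Late libraries 1, 2, 4 and 5 sit at the upper left, and late library 3 (TLR8 38.7, TLR10 230) lies beside early library 2 (TLR8 40.0, TLR10 168).

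The same libraries were the exceptions for both members. Early library 2 had the highest TLR8 (40.0) and the lowest TLR10 (168) of the early stage, and late library 3 had the lowest TLR8 (38.7) and the highest TLR10 (230) of the late stage. Early library 2 also had the highest summed macrophage markers of its stage (13040, against 3213 to 6398 in the other 4), and the highest sums of its stage for fibroblast (60728) and neutrophil markers (9417). In late CCH the lowest macrophage sum was that of late library 2 (7143), where TLR8 was at 81.8, while late library 3 had 7734. The summed Langerhans and dendritic cell markers were lowest of the early stage in early library 2 (1338, against 1409 to 3643) and highest of the late stage in late library 3 (1802, against 1134 to 1503). Early library 1, with a similar sum (1409), had TLR8 at 13.3 and TLR10 at 338. Late library 3 had the highest summed B cell markers of all 10 libraries (3529, against 658 to 1335 in the other 9), with 576 normalized read counts of MS4A1, which encodes the B cell surface protein CD20. It also had the lowest sums of its stage for T cell markers (4061, against 4353 to 6329) and cytotoxic lymphocyte markers (5869, against 11600 to 13432). Its neutrophil (130) and keratinocyte sums (711) were likewise the lowest of the late stage, and its plasma cell sum (1138) was the highest. The part of these cells in the values of TLR8 and TLR10 was not tested.

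The other 3 members of the TLR2 subfamily had means close to each other in the stages. TLR2, the shared partner in lipopeptide detection, was at 118, 209, 42.5, 70.9 and 120 in early libraries 1 to 5 and at 164, 61.8, 57.1, 82.8 and 130 in late libraries 1 to 5. Its mean was 112 ± 63.4 in early and 99.2 ± 46.4 in late CCH (log2FC -0.10, SE 0.41, 95% interval -1.002 to 0.79). TLR1, which pairs with TLR2 for triacylated lipopeptides, was at 90.4, 79.1, 40.7, 42.5 and 84.8 in early and 27.8, 51.4, 76.5, 70.6 and 53.5 in late libraries. The range of TLR1 in late CCH lay largely within that in early CCH, with means of 56.0 ± 19.1 and 67.5 ± 24.0 (log2FC -0.26, SE 0.33, 95% interval -0.99 to 0.46). TLR6, which pairs with TLR2 for diacylated lipopeptides, was at 56.2, 83.7, 29.9, 31.5 and 74.1 in early and 54.7, 40.9, 60.0, 37.8 and 27.3 in late libraries. Its mean was 55.1 ± 24.4 in early and 44.2 ± 13.2 in late CCH (log2FC -0.24, SE 0.35, 95% interval -0.996 to 0.51). The differences of TLR1, TLR2 and TLR6 between stages were smaller than the spread between libraries, while their intervals still include a change of nearly 1 log2 unit downward. TLR1, TLR6 and TLR10 are paralogs of similar sequence, and reads with several mapping places had been divided equally among those places, so how their reads were split is uncertain.

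TLR4, which detects lipopolysaccharide together with MD-2 (gene LY96) and CD14, had the largest SD of the family within the early stage. It was at 111, 299.6, 92.3, 20.5 and 186 in early libraries 1 to 5 and at 180, 75.2, 89.1, 137 and 129 in late libraries 1 to 5. All late values lay within the early range. The mean was 142 ± 106 in early and 122 ± 41.6 in late CCH, lower in late, while the log2FC was positive at 0.16 (SE 0.56, 95% interval -1.06 to 1.38). The log2FC was -0.41 without early library 4, the lowest of its stage, and -0.20 with edgeR, so that TLR4 has no settled direction.

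TLR5, the flagellin receptor, was the least abundant member in both stages and did not pass the filter on low values. It had 1, 2, 1, 0 and 0 reads in early libraries 1 to 5 and 5, 0, 5, 12 and 8 reads in late libraries 1 to 5. A count of 0 allows up to 3 reads, or 2.36 to 3.22 normalized read counts in these libraries. Of the late libraries, 4 were above every early library and 1 had no read. Summed over libraries there were 4 reads in early and 30 in late CCH, a ratio of reads per library total of 8.66 (95% exact interval 3.05 to 33.8, covering counting error only). With no filter the limma fit gave a log2FC of 1.74 (SE 0.70) and an unadjusted p of 0.0263, which became 1 after BY adjustment.

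Of the endosomal members other than TLR8, none had a log2FC of 1 or more in size. TLR7, a receptor for single-stranded RNA, was at 162, 143, 156, 257 and 180 in early libraries 1 to 5 and at 73.6, 135, 242, 181 and 110 in late libraries 1 to 5. Its mean was 180 ± 45.1 in early and 148 ± 65.3 in late CCH (log2FC -0.36, SE 0.29, 95% interval -0.99 to 0.27). TLR3, which detects double-stranded RNA and signals through TICAM1 rather than MyD88, was at 39.0, 36.3, 52.5, 30.7 and 15.0 in early and at 35.8, 25.7, 16.5, 66.5 and 6.30 in late libraries. The highest and the lowest TLR3 value were both in late CCH (means 34.7 ± 13.6 and 30.1 ± 23.1, log2FC -0.45, SE 0.54, 95% interval -1.63 to 0.73). TLR9, a receptor for unmethylated CpG DNA, rested on 43 reads in early and 64 in late CCH. It was at 5.71, 1.86, 8.14, 7.88 and 17.2 in early and at 10.9, 3.81, 13.6, 24.5 and 11.5 in late libraries, with overlapping ranges. The mean of TLR9 was 8.15 ± 5.64 in early and 12.9 ± 7.49 in late CCH (log2FC 0.65, SE 0.61, 95% interval -0.68 to 1.98). TLR9 reached the filter value of 10 in early library 5 and late libraries 1, 3, 4 and 5. It was thus tested mainly through the stage with the higher mean. The BY-adjusted limma p was 1 for each of the 7 members tested other than TLR8 and TLR10.

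**Figure D3:**
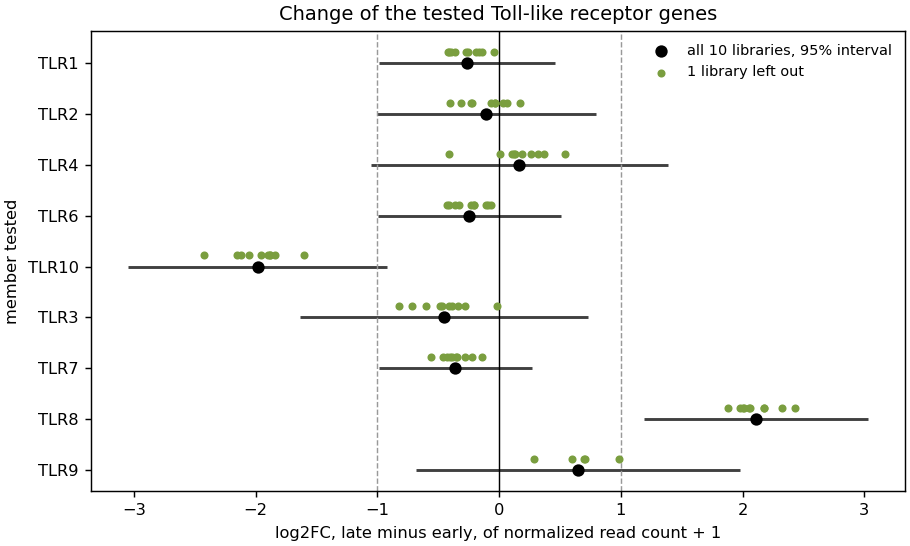
log2FC (late minus early) of the 9 tested members as black points with 95% intervals, and in green the values with 1 library left out. Dashed lines mark a log2FC of 1 in either direction. TLR8 (2.11) and TLR10 (-1.98) have intervals beyond 0, the other 7 intervals include 0, and TLR9 has fewer green points because it passed the filter in only some of these fits.

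Whether related members differed in their change was tested within libraries, since a difference of 2 log2 values in the same library depends little on its scaling. The pairs were TLR8 with TLR7, its neighbor on the X chromosome in the newer dog assembly UU_Cfam_GSD_1.0, and the 3 pairs among TLR10, TLR1 and TLR6. Stages were compared by exact permutation, two-sided (smallest possible p 0.00794), with BH adjustment over the 4 pairs. TLR8 minus TLR7 was -3.40 ± 1.12 in early and -0.93 ± 0.97 in late CCH (SD, n = 5 each). TLR8 rose relative to TLR7 by 2.47 (exact p = 0.0159, adjusted 0.0317). The early values were -3.51, -1.81, -2.98, -4.86 and -3.82, and the late values were -0.32, -0.72, -2.61, -0.79 and -0.20, so 4 of 5 late libraries lay above every early library. TLR10 minus TLR1 was 2.06 ± 0.64 in early and 0.34 ± 1.03 in late CCH, and the stages differed by -1.72 (exact p = 0.0159, adjusted 0.0317). TLR10 minus TLR6 was 2.39 ± 0.84 in early and 0.65 ± 0.95 in late CCH, and this pair differed by -1.74 (exact p = 0.0238, adjusted 0.0317). TLR1 minus TLR6 differed by -0.02 (exact p = 0.976). The pairs reuse the TLR8 and TLR10 values of the limma fits, so they are no separate support for those changes. The 3 pairs among TLR10, TLR1 and TLR6 also depend on each other. Without any 1 of 7 libraries (early 1, 3, 4 or 5, late 1, 2 or 5) the adjusted exact permutation p of the first 3 differences was 0.0635. Late library 3 lay nearest the early values in TLR8 minus TLR7 (-2.61) and had the highest TLR10 minus TLR1 of its stage (1.58).

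The genes next to the members in the newer assembly were compared as well, where they were in the table and passed the filter. TMSB4X, the actin-binding thymosin gene that follows TLR8, was at normalized read counts of 14725 to 22718 and had a log2FC of -0.20 (SE 0.17). KLF3, a transcription factor gene that follows TLR10, had a log2FC of 0.07 (SE 0.24). Beside TLR9, ALAS1, a gene of heme synthesis, had a log2FC of 1.52 (SE 0.39, limma with BY-adjusted p = 0.210) and the phosphatase gene PPM1M 0.67 (SE 0.22). FAM149A beside TLR3 had a log2FC of 0.15 (SE 0.66), and the locus LOC111097892 beside TLR4 had 0.72 (SE 0.48). None of these 6 neighbors was called.

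The summed normalized read count of the 10 members was 900 ± 184 in early and 686 ± 134 in late CCH (SD, n = 5 each), with overlapping ranges of 687 to 1084 and 526 to 829. TLR10 took 31.9% ± 9.41 of the summed reads in early and 12.2% ± 9.22 in late CCH. TLR8 took 2.00% ± 1.16 in early and 11.6% ± 4.80 in late CCH. The share of TLR7 was nearly the same, 21.2% ± 9.46 and 21.3% ± 6.96. The 4 endosomal members together held 28.3% ± 10.0 in early and 39.0% ± 8.03 in late CCH. TLR10 was the most abundant member in 3 early libraries, TLR4 in early library 2 and TLR7 in early library 4. In late CCH the most abundant member was TLR7 in 3 libraries, TLR4 in late library 1 and TLR2 in late library 5. These shares restate the levels above and were not tested.

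**Figure D4:**
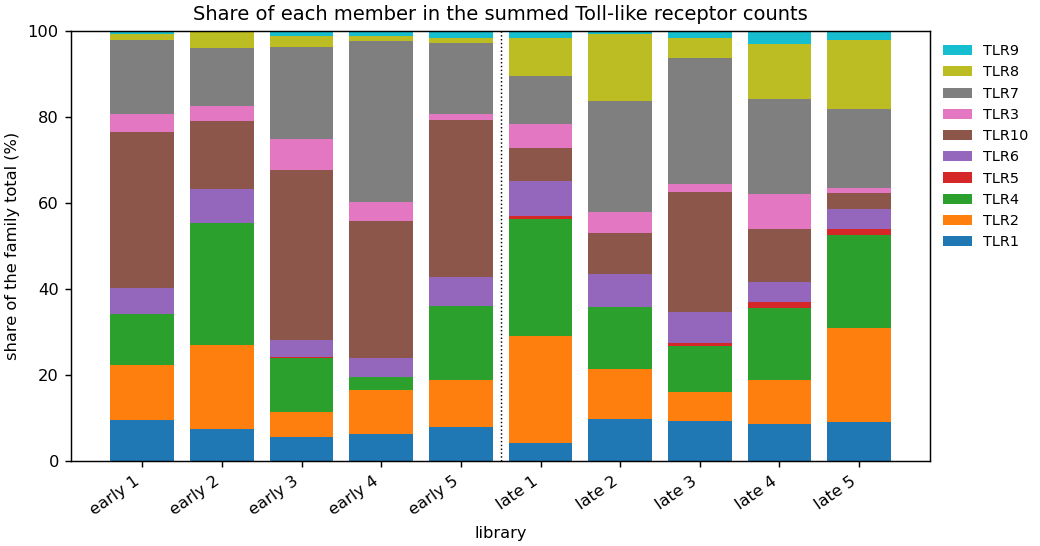
Share (%) of each member in the summed reads of the 10 Toll-like receptor genes, 1 stacked bar per library, early left and late right of the dotted line. TLR10 (brown) holds 15.8% to 39.5% in early and 3.88% to 27.8% in late libraries, and TLR8 (olive) 1.09% to 3.76% in early and 4.67% to 16.05% in late libraries.

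Levels of other cell types that carry TLRs were summed from marker lists, and their part in the member values was not tested. The 12 macrophage markers had no call, 9 of 12 had a positive log2FC, and the highest was that of the scavenger receptor gene MSR1 (2.25) and the lowest that of MRC1 (-0.88). Of the 10 B cell markers 8 were tested and none was called; 6 had a positive log2FC, from CD79B at 4.67 down to BANK1 at -0.87. The 5 plasmacytoid dendritic cell markers in the table, of 8 listed, summed to 551 to 752 in early and 519 to 1007 in late CCH, and 3 were tested, of which TCF4 had the highest (1.64) and PACSIN1 the lowest log2FC (-1.91). CLEC4C, PTCRA and SCT had no entry under their symbols. Of the 8 neutrophil markers, 5 were tested with no call, from CSF3R (1.47) to S100A9 (-1.25), and the summed levels were 229 to 9417 in early and 130 to 9031 in late CCH. The 8 keratinocyte markers all had a negative log2FC with no call, from -0.88 for KRT10 to -1.56 for DSG1, with sums of 1003 to 17276 and 711 to 9345. In the Langerhans and dendritic cell list the lowest log2FC was that of CD1A8 (-3.80, not called) and the highest that of XCR1 (2.44, not called). All 11 T cell markers had a positive log2FC, from CD28 (4.00) to CD8A (2.29), with 1 of them (CD6) called, a call kept in 5 of the 10 fits that left out a library. These calls stand beside 2.17% of all genes tested. With BH adjustment (9.04% of all genes), all 11 T cell, 4 of 8 B cell and 2 of 12 macrophage markers were called higher. So was 1 of the 3 plasmacytoid dendritic cell markers tested. Called lower were 4 of 10 Langerhans and dendritic cell and 1 of 8 keratinocyte markers, and no neutrophil marker was called. No listed marker was at 0 in all 10 libraries.

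The genes around the receptors were read from lists by role. Of 104 listed genes 101 were in the table and 92 were tested, and 2 of the 92 were called (2.17%), equal to the 2.17% of all genes tested. The first was CD180, a TLR homolog without a TIR domain that acts in B cells and dendritic cells with LY86. CD180 was at 937, 615, 858, 838 and 666 in early libraries 1 to 5 and at 277, 275, 389, 274 and 290 in late libraries 1 to 5, so every late value lay below every early value. CD180 fell by 1.37 on the log2 scale (SE 0.16, limma with BY-adjusted p = 0.00812), from 783 ± 136 to 301 ± 49.7, and was called in all 20 alternatives. The other was SIGIRR, an inhibitory receptor that dampens TLR and interleukin-1 receptor signaling. SIGIRR was at 47.6, 55.8, 32.6, 28.4 and 19.3 in early and at 105, 111, 117, 112 and 87.1 in late libraries, again without overlap. SIGIRR rose by 1.599 (SE 0.28, limma with BY-adjusted p = 0.0436), from 36.7 ± 14.8 to 107 ± 11.7. Its call was lost in 9 of the 10 fits with 1 library left out, with no filter (adjusted p = 0.0557) and with edgeR (adjusted p = 0.0566), with values of 1.399 to 1.77 and adjusted p-values of at most 0.149 over all alternatives. With BH adjustment 12 of the 92 were called (13.04%, 11 higher and 1 lower, beside 9.04% of all genes), and 31 of the 92 had an unadjusted limma p of at most 0.05 (33.7%, beside 30.9%).

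By role, the co-receptors, chaperones, adaptors and kinases had medians near or below 0. The 5 tested co-receptors and ligand-transfer genes had a median log2FC of -0.29, from CD14 (1.01, not called) to CD180, and LY96 was at 255 ± 105 in early and 200 ± 52.4 in late CCH. The 11 chaperones and endosomal processing genes had a median of -0.01. Among them the protease gene LGMN had the highest value (1.12) and UNC93B1, the chaperone of the endosomal members, the lowest (-0.73, 480 ± 84.2 against 296 ± 94.2, limma, adjusted p = 0.331). The 4 tested TIR adaptors had a median of -0.02, from PIK3AP1 (0.23) to MYD88 (-0.57). MYD88 was at 567 ± 129 in early and 374 ± 25.5 in late CCH, with every late value below every early value and an adjusted limma p of 0.322. Of the 92 tested pathway genes 3 were separated downward in this way, and 8, TRAF3 among them, were separated upward. Over all genes tested 6.05% were separated downward and 5.91% upward. The adaptors TIRAP and SARM1 were under the filter. The 17 kinases and ubiquitin ligases had a median of 0.03, from TRAF3 (1.57, limma, adjusted p = 0.166) to TBK1 (-0.59).

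The transcription factors, negative regulators and inducible outputs had medians above that of all genes tested (-0.0037), with SIGIRR their only called gene. Differences between roles were not tested. The 9 tested transcription factors had a median of 0.46, with 7 positive and 2 negative values, from RELB (1.16) to IRF5 (-0.40), and IRF7 had no entry. The 14 tested negative regulators had a median of 0.76, with 12 positive and 2 negative values, from SOCS1 (2.23, limma, adjusted p = 0.492) to RNF216 (-0.12). The 15 tested inducible outputs had a median of 1.19, with 12 positive and 3 negative values, from the chemokine gene CCL5 (3.48, limma, adjusted p = 0.223) to IL10 (-0.92). IL6 and CXCL8 counted as positive (1.75 and 0.94), although their mean normalized read counts were lower in late CCH. They were 70.3 ± 135 and 48.8 ± 87.2 in early and 31.5 ± 22.4 and 41.6 ± 25.0 in late CCH. IL1B, IL12A, IL12B and CCL20 were under the filter, with lower late means for IL1B and CCL20 and higher ones for IL12A and IL12B. CD86, which encodes a costimulatory ligand and is in this list, had a BY-adjusted limma p of 0.0460 but a log2FC of -0.81, under the size required for a call. CCL5 is also made by T cells and natural killer cells, and the summed cytotoxic lymphocyte markers, CCL5 among them, were 171 to 4408 in early and 5869 to 13432 in late CCH. All 6 tested genes of that list had a positive log2FC, from GZMK (3.63) to GZMA (1.14), and KLRK1, an activating receptor of natural killer and T cells, was called (3.30), a call kept in 2 of the 10 fits that left out a library. With all 10 libraries the KLRK1 call was also lost with robust variance moderation in limma (adjusted p = 0.0735) and with edgeR (adjusted p = 0.0753). The part of cytotoxic lymphocytes in the outputs was not tested. The 9 tested pattern sensors of other families had a median of -0.61, with 3 positive and 6 negative values, from DDX58 (0.79) to NOD2 (-0.96). The 8 endogenous ligands had a median of -0.15, from BGN (1.04) to S100A9 (-1.25).

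**Figure D5:**
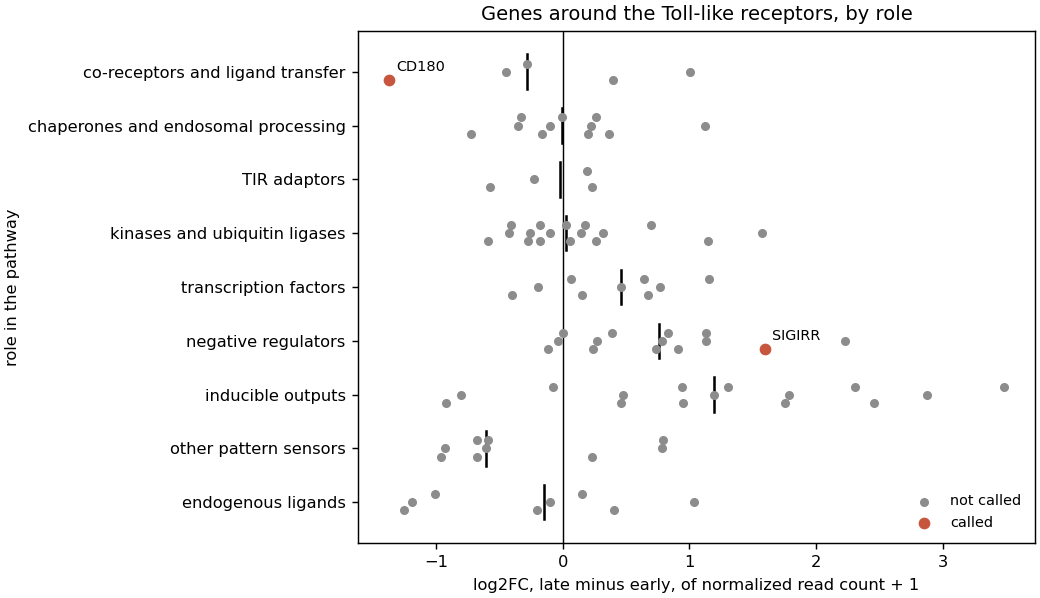
log2FC (late minus early) of 92 tested genes around the Toll-like receptors, grouped by role, with a vertical tick at each role's median and called genes in red. CD180 (-1.37) and SIGIRR (1.599) are the called genes, and the role medians run from -0.61 for other pattern sensors to 1.19 for inducible outputs.

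The genes whose pattern was most like each member's were listed by the Pearson correlation of log2 values after subtraction of the stage means, over the 10 libraries, as a description. TLR8 was closest to TRAF3IP1 (0.964), PLA2G5 (0.948) and ENTPD7 (0.944). TLR10 was closest to FAM168B (0.965), POLK (0.944) and RGS18 (0.935). The nearest to TLR6 were CTHRC1 (0.992), CNN3 (0.959) and ANKRD27 (0.954), and to TLR9 UHRF2 (0.980), LRRC71 (0.9496) and NUDT12 (0.946). TLR4 came nearest to P4HB (0.960), C1H9orf64 (0.960) and RNASEK (0.955), and TLR7 to CGNL1 (0.960), ARHGAP22 (0.957) and TCP11L1 (0.953). BMT2 (0.948), KIAA0513 (0.938) and NUAK1 (0.936) were the nearest genes to TLR3. SMOC2 (0.930), DCLK1 (0.915) and CD164 (0.915) were nearest to TLR2, and FIS1 (0.924), ARSB (0.919) and ZNF784 (0.916) to TLR1. Over all genes tested, the best correlation with any of 11109 candidate genes had a median of 0.9505 and a 5th to 95th percentile range of 0.912 to 0.981. The best value of TLR6 alone lay above that range, and those of the other 8 tested members lay within it. All points share their libraries and therefore depth and cell makeup.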

How the data were processed

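RNA of 10 FFPE tumors was sequenced with QuantSeq 3′. According to the methods of the study, reads were trimmed with Cutadapt, aligned with STAR to CanFam3.1 and counted per gene with featureCounts, first on the RefSeq annotation and then, for unassigned reads, on genes extended by 2 kb at the 3′ end. Reads with several mapping places were divided equally among them, which can blur close paralogs. Versions and the strand setting of the counting are not given in the sources used here, so reads of an antisense or overlapping gene could not be told apart. The deposited signal is a normalized read count, which the authors obtained by dividing the counts of a library by a size factor. Values within a library were whole multiples of the value of 1 read (100% of 166096 values above 0, tolerance 0.001 reads), so whole reads were recovered. Equal division of reads among mapping places would give fractions, and none were seen. How fractions were handled before scaling is not stated in the sources used here, so recovered reads may be rounded counts. The table has 21 value columns, of which 11 could not be matched to the series' samples and were left out.

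Genes with at least 10 normalized read counts in at least 5 libraries were tested with limma 3.58.1 (R 4.3.3, trended prior variance, no covariates) on log2(value + 1), a scale that understates changes of low genes. P-values were BY-adjusted over all 12397 genes. edgeR 4.0.16 and DESeq2 1.42.0 were run on the recovered reads as alternatives, with other pseudocounts, filters, scalings and adjustments, and without each library in turn. Robust moderation of the variances was a further alternative for limma. The limma fit was also run on simulated counts with known changes. Intervals of read ratios cover counting error only and not the spread between tumors, because the reads of a stage were summed. They also take each read as independent, which reads without molecular identifiers do not assure. The limma p-values set the stage difference against the spread between single tumors of different dogs, moderated over genes. Because stage and extraction batch cannot be told apart, no p-value isolates stage. Named genes were all members, the called, highest and lowest genes of each pathway list and of the marker lists of immune cells and keratinocytes whose level is described, and the 3 genes most like each member. LY96, CD86, IL6, CXCL8, MS4A1 and the genome neighbors were named outside this rule, after their values were seen. Some listed genes with no entry or under the filter were named as well. The members and the lists were chosen with earlier results of these data known. Of the table's symbols 19794 (85.1%) were found in the RefSeq table of UU_Cfam_GSD_1.0, used only for neighbors, where TLR6 had no entry under its symbol.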

Additional observations from a re-analysis of the deposited data

Results flagged for a closer look

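TLR8 minus TLR7 in late library 3 (-2.61, against -0.79 to -0.20 in the other 4 late libraries) lay far from the rest of its stage, with a gap to its nearest neighbor of 0.757 of the whole range (critical value 0.71). It was the only 1 of 30 groups of 5 libraries past that value, and chance gives about 1.5 in 30.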

How the results depend on the processing

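No paired analysis was possible because no column name holds a replicate number and the stages come from different dogs. For the members, 164 log2FC values under other settings kept their direction and side of the threshold. TLR8 and TLR10 became calls with BH adjustment (1 member higher, 1 lower), TLR8 with DESeq2, and with 1 library left out 0 to 1 member was called in each direction (TLR8 without early library 2, TLR10 without late library 3). TLR8 stayed between 1.88 and 2.43 and TLR10 between -2.42 and -1.61 in these fits. TLR4 turned negative with edgeR (-0.20), with DESeq2 (-0.21) and without early library 4 (-0.41), for a range of -0.41 to 0.54, and TLR2 turned positive without early library 2 (0.17), late library 2 (0.03) or late library 3 (0.06), for a range of -0.40 to 0.17. TLR9 passed the filter in 5 of the 10 fits with 1 library left out. These were the fits that kept early library 5 and late libraries 1, 3, 4 and 5.

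With 1 library left out, TLR8 minus TLR7 was 2.10 to 2.89, TLR10 minus TLR1 -2.03 to -1.34 and TLR10 minus TLR6 -2.09 to -1.52, with adjusted exact permutation p-values of 0.0212 to 0.0635. TLR1 minus TLR6 was -0.18 to 0.29, positive without early library 1 (0.07), 3 (0.0065) or 4 (0.0031) or late library 1 (0.29). Pathway genes called higher numbered 0 with no filter and with edgeR, 2 with column total scaling, 11 with BH adjustment, 6 with DESeq2, and 0 to 2 with 1 library left out.

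Over all genes, calls higher and lower in late CCH numbered 685 and 436 with BH adjustment and 480 and 330 with DESeq2, edgeR called 81 higher, and with 1 library left out there were 18 to 144 higher and 29 to 153 lower. Without early library 5 there were 49 calls in all and without late library 2 there were 54. The cause of these differences was not tested. The depth leaves TLR5 and TLR9 at few reads, with wide intervals.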
